A study of Mus musculus with 12 samples.

Results

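The 3 vehicle (DMSO) libraries of the series, out of 12 libraries in all, hold the RNA of Th9 cells that received no test compound, and they were chosen by their label alone. Naive CD4+ T cells from spleens, labelled as of the strain C57BL/6J, were stimulated with plate-bound anti-CD3 (5 μg/mL in the series description, a lower concentration in the published methods) and soluble anti-CD28 at 1 μg/mL. IL-4 at 10 ng/mL and TGF-β at 1 ng/mL steered them to the Th9 fate, with anti-IL-12 at 5 μg/mL and anti-IFN-γ at 10 μg/mL blocking the others. After the first 3 days the cells were kept in IL-4 and TGF-β, RNA was taken on day 4, and DMSO was added in the same volume as the compounds given to the other groups. The culture is therefore a model of polarization in vitro, and the sources used here do not say whether the 3 libraries came from separate mice or separate cultures, so the spread between them may be technical. Levels are FPKM, in which fragments are divided by the kilobases of exon and by the size of the library, so levels of different genes can be set side by side. Errors are the SD of the 3 libraries (n = 3), replicates are given in the order 1, 2, 3, and no group was compared with another.

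The strain label names no receptor transgene, whereas the published methods name both C57BL/6J and CD45.1+ OT-II mice as sources of naive cells without saying which gave these libraries. OT-II mice carry a transgenic T cell receptor of the Vα2 and Vβ5 families, whose segments are *Trav14* and *Trbv12*. The 8 *Trav14* segments held 85.9%, 91.9% and 81.9% of the summed FPKM of 121 *Trav* segments, and the next segment, *Trav3-3*, had 7.29 ± 0.818 FPKM. The 3 *Trbv12* segments held 57.4%, 57.0% and 57.3% of the summed FPKM of 26 *Trbv* segments, and the next, *Trbv31*, had 29.7 ± 0.179 FPKM. In all 3 libraries these families thus held most of the receptor segment transcripts, and whether the cells came from OT-II mice was not tested.

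Th9 cells are CD4+ helper T cells defined by secretion of IL-9. IL-4 acts through STAT6 and GATA3, and TGF-β acts through SMAD proteins and PU.1 (the product of *Spi1*), while antigen receptor and IL-2 signals bring in IRF4, BATF, NFAT and STAT5. The *Il9* promoter is where these inputs are known to meet, and Th9 cells are known for roles in allergy, helminth expulsion and antitumor immunity.

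All 4 genes taken here as markers of the fate were in the top 3.08% of the table by mean FPKM. Of its 32051 genes, 13630 were at 0 in every DMSO library. *Irf4* stood at 155, 158 and 155 FPKM (156 ± 1.51) and ranked 244 of 32051 genes. *Batf*, the AP-1 partner of IRF4, stood at 77.2, 74.3 and 74.9 FPKM (75.5 ± 1.51, rank 619). *Il9* itself was at 51.0, 57.7 and 55.1 FPKM (54.6 ± 3.38, rank 907), from 1001 to 1284 reads per library. *Gata3*, the type 2 master factor, was at 50.7, 47.8 and 52.6 FPKM (50.4 ± 2.40, rank 986). The ranges of *Irf4*, *Batf* and *Il9* did not overlap, whereas that of *Il9* overlapped that of *Gata3*, so the order of the last pair is within the spread of the libraries. In bulk RNA a lower level can mean fewer cells that express a gene or less RNA in each of them, and these cannot be told apart. In the GENCODE annotation of GRCm38, *Irf4* (ENSMUSG00000021356) lies on chromosome 13 from 30749226 to 30766976 on the plus strand, *Batf* (ENSMUSG00000034266) on chromosome 12 from 85686669 to 85709087 on the plus strand, *Il9* (ENSMUSG00000021538) on chromosome 13 from 56479277 to 56482246 on the minus strand, and *Gata3* (ENSMUSG00000015619) on chromosome 2 from 9857078 to 9890034 on the minus strand.

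The 250 bases before the RefSeq start of the defining cytokine, its leading factor, the highest cytokine receptor gene and the highest granzyme gene are shown because the profile turns on these transcripts (GRCm38.p6, 5′ to 3′ on the strand of the gene). Capitals mark every match, on either strand, to the core promoter motif TATAAA, to the AP-1 motif TGANTCA that dimers with BATF bind, to the STAT motif TTCNNNNGAA and to the zinc-finger motif AGATAA that factors such as GATA3 bind.
Il9, chr13:56482258-56482507, minus strand: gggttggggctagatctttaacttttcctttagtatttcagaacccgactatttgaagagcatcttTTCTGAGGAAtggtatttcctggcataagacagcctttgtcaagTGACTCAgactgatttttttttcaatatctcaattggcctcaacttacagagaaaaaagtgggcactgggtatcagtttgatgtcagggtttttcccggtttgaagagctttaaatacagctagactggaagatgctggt
Irf4, chr13:30748983-30749232, plus strand: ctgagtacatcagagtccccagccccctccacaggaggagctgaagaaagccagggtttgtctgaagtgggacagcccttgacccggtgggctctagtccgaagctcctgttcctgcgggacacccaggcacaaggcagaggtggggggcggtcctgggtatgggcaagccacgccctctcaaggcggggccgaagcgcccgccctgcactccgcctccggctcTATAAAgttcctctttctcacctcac
Il2ra, chr2:11642542-11642791, plus strand: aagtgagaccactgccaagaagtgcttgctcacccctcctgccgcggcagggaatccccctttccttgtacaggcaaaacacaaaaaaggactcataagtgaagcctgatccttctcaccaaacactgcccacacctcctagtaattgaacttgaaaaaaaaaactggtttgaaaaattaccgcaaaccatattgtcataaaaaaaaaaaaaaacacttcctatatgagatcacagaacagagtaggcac
Gzmb, chr14:56262335-56262584, minus strand: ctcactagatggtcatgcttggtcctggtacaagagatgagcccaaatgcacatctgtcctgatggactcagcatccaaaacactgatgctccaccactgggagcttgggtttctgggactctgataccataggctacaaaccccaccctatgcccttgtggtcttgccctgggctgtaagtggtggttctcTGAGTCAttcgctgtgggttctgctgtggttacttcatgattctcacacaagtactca
*Il9* held TGACTCA at positions −140 to −134 and TTCTGAGGAA at −184 to −175, counted back from the start. *Irf4* held TATAAA at −26 to −21, *Gzmb* held TGAGTCA at −58 to −52, and *Il2ra* held no match. Of 32851 promoter windows of this length in the RefSeq table, 12.4% held TATAAA, 6.75% TGANTCA, 5.85% TTCNNNNGAA and 9.99% AGATAA. A match is a description of the letters and not of binding. The *Irf4* window had 11 CG dinucleotides and 63.6% G and C, against 2 and 40.4% for *Il9*, 3 and 42.4% for *Il2ra*, 1 and 50.8% for *Gzmb*, and a median of 6 and 52.4% over all windows.

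The libraries held 36607305, 40860249 and 43481066 reads on genes, recovered as whole numbers from the FPKM and gene lengths, a ratio of 1.19 between deepest and shallowest. One read on 1 kb of exon was worth 0.0230 to 0.0273 FPKM. Of 32051 genes, 10271 had a mean of at least 1 FPKM, 4703 at least 10, 436 at least 100 and 21 at least 1000. Of those at 1 FPKM or more, 92.9% were protein-coding. At the other end, 13630 genes were at 0 in all 3 libraries and 16143 had at most 3 reads in every library, the floor used here. The 13 protein genes of the mitochondrial genome are listed at 0 in every library and say nothing of mitochondrial transcripts.

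The most abundant transcripts were those of protein synthesis and the cytoskeleton. *Eef1a1*, which delivers aminoacyl-tRNA to the ribosome, led at 5019, 5099 and 5046 FPKM (5055 ± 40.7). β-actin (*Actb*) followed at 3031, 3031 and 3166 FPKM (3076 ± 77.9), and the actin-binding thymosins *Tmsb4x* (2627 ± 60.6) and *Tmsb10* (1847 ± 32.8) held ranks 3 and 8. The top 20 otherwise held 11 ribosomal protein genes led by *Rps3a1* (2117 ± 27.1 FPKM), *Rplp0* (2079 ± 38.0), *Rps15* (1936 ± 37.5), *Rplp1* (1903 ± 53.9) and *Rps2* (1733 ± 56.3), with *Rps4x*, *Rpl41*, *Rpl4*, *Rpl8*, *Rps6* and *Rpsa* between 1053 and 1404 FPKM. It was completed by *Ptma* (prothymosin α, 1722 ± 74.3 FPKM), the chaperone *Hsp90ab1* (1624 ± 26.8), the translocation factor *Eef2* (1508 ± 20.4), the MHC class I light chain *B2m* (1168 ± 12.7) and *Gm9794* (1118 ± 10.5), a processed pseudogene. Of the 50-base stretches of *Gm9794*, 86.7% also occur in other genes, so how far its value belongs to its own locus is uncertain. The same share was 72.0% for *Rps4x*, 71.0% for *Rps3a1*, 70.8% for *Rps2*, 58.9% for *Rplp1*, 56.4% for *Eef1a1* and 55.1% for *Rps6*, so their levels and their order are uncertain too. The 10 highest genes held 8.45% ± 0.0232 of the summed FPKM, the top 20 held 13.0% ± 0.0360, the top 100 held 29.0% ± 0.200 and the top 1000 held 62.6% ± 0.107. The same top 100 took 16.8% ± 0.137 of the reads, since short genes have more FPKM per read.

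**Figure D1:**
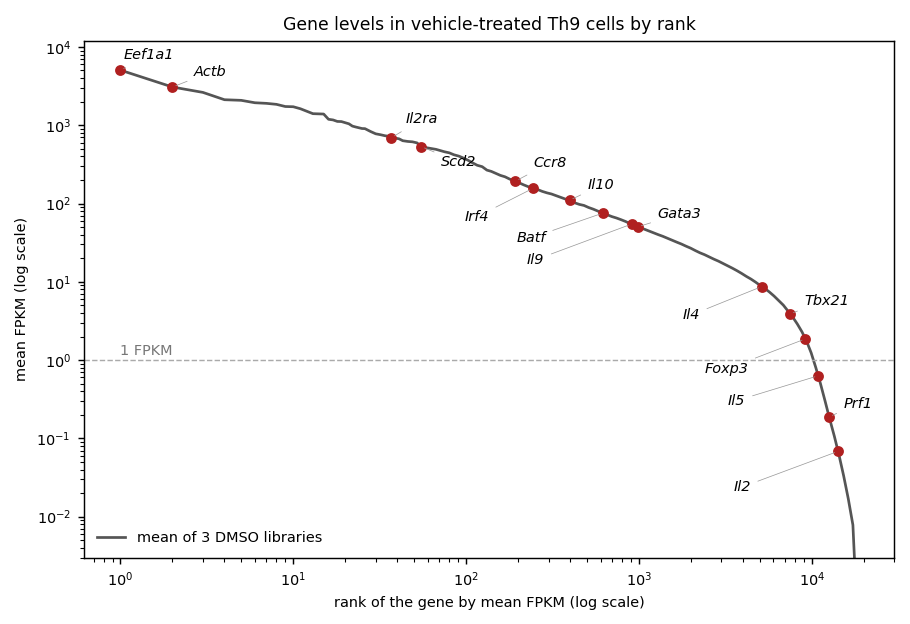
Mean FPKM of the 3 DMSO libraries (vertical axis, log scale) against the rank of the gene by that mean (horizontal axis, log scale), with 16 genes marked as red points and a dashed line at 1 FPKM. *Il2ra* at rank 37 stands far above *Irf4* at 244, *Batf*, *Il9* and *Gata3* follow between ranks 619 and 986, and *Il2* lies well below 1 FPKM.

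Among the 100 highest genes, 51 were ribosomal protein genes, 4 were translation factor genes, 6 were glycolytic genes and 2 encoded subunits of ATP synthase, which left 37 others. Among these were *Npm1* (nucleophosmin, 777 ± 17.6 FPKM), *Hspa8* (733 ± 5.98), *Tubb5* (670 ± 6.89) and *Vim* (441 ± 6.95). *Il2ra*, the α chain of the IL-2 receptor, had 692, 702 and 686 FPKM (693 ± 8.18, rank 37). *Trbc2*, a constant region of the T cell receptor β chain, had 469 ± 11.7 FPKM, and the cytokine *Mif* had 424 ± 7.16. *Lgals1* (galectin-1) stood at 756 ± 6.49 FPKM and *Cd52*, a glycoprotein of the lymphocyte surface, at 405 ± 2.41. *Scd2* (534 ± 8.22 FPKM), which desaturates acyl chains, was the only gene of the fatty acid synthesis list in the top 100.

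Most genes of the Th9 list had at least 10 FPKM, and the master regulators of rival lineages were lower. Of 30 Th9 lineage factors, 28 had at least 1 FPKM and 20 at least 10 FPKM, with a median of 15.8 FPKM against 8.73 for all genes at 1 FPKM or more. After *Irf4* came *Rbpj*, the nuclear partner of Notch (113, 116 and 114 FPKM, 115 ± 1.52), then *Ets1* (96.8 ± 0.878), *Hif1a*, the oxygen-sensing factor (92.8 ± 0.463), and *Batf*. The IL-2 and IL-4 transducers *Stat5b* (70.2 ± 1.25 FPKM), *Stat5a* (50.5 ± 0.480) and *Stat6* (45.4 ± 0.595) had similar levels, and *Batf3* was at 39.5 ± 1.24. The ratio of *Stat5b* to *Stat5a*, 1.39 ± 0.0149, turned to 0.820 when the length of the longest transcript replaced the exon length. The TGF-β arm was lower, with *Smad4* at 15.9 ± 0.395 FPKM, *Smad2* at 10.3 ± 0.308 and *Smad3* at 6.58 ± 0.289. *Maf* (16.7 ± 0.152 FPKM) and *Ahr*, the aryl hydrocarbon receptor (14.3 ± 0.175), were in the same band, and *Pparg*, a lipid-sensing receptor tied to IL-9 in earlier work, had 3.18 ± 0.264 FPKM.

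Both ETS factors that are textbook regulators of *Il9* were near the bottom of the list. *Etv5* had 0.479, 0.644 and 0.566 FPKM (0.563 ± 0.0825). *Spi1*, which encodes PU.1, had 0, 0.0363 and 0.0171 FPKM, from 0 to 4 reads per library. *Spi1* was thus at the edge of detection at this depth, in libraries in which *Il9* had over 1000 reads each.

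Of 16 factors of other CD4+ lineages, 14 had at least 1 FPKM and 5 at least 10 FPKM, with a median of 3.06 FPKM. Among the high members are genes used by several lineages, such as *Stat3* (60.6 ± 0.917 FPKM), *Runx3* (22.8 ± 0.369), *Zbtb7b* (10.4 ± 0.0754), the CD4-lineage factor ThPOK, and *Stat4* (10.3 ± 0.101). The Th9 list holds such genes too, among them *Foxo1*, which is counted below with the naive or memory genes. The medians of both lists therefore depend on which genes were put in them. Master regulators were lower. *Tbx21* (T-bet, Th1) was at 3.91, 3.87 and 3.97 FPKM (3.91 ± 0.0500), *Foxp3* (Treg) at 1.93, 1.89 and 1.78 (1.87 ± 0.0796) and *Bcl6* (Tfh) at 0.926, 1.12 and 1.13 (1.06 ± 0.117). In each library *Gata3* exceeded them, by 12.9 ± 0.454 times for *Tbx21* and 27.0 ± 2.23 times for *Foxp3*. *Prdm1*, which encodes BLIMP-1, was level with *Bcl6* at 1.06 ± 0.0911 FPKM and *Eomes* was at 0.220 ± 0.0441.

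**Figure D2:**
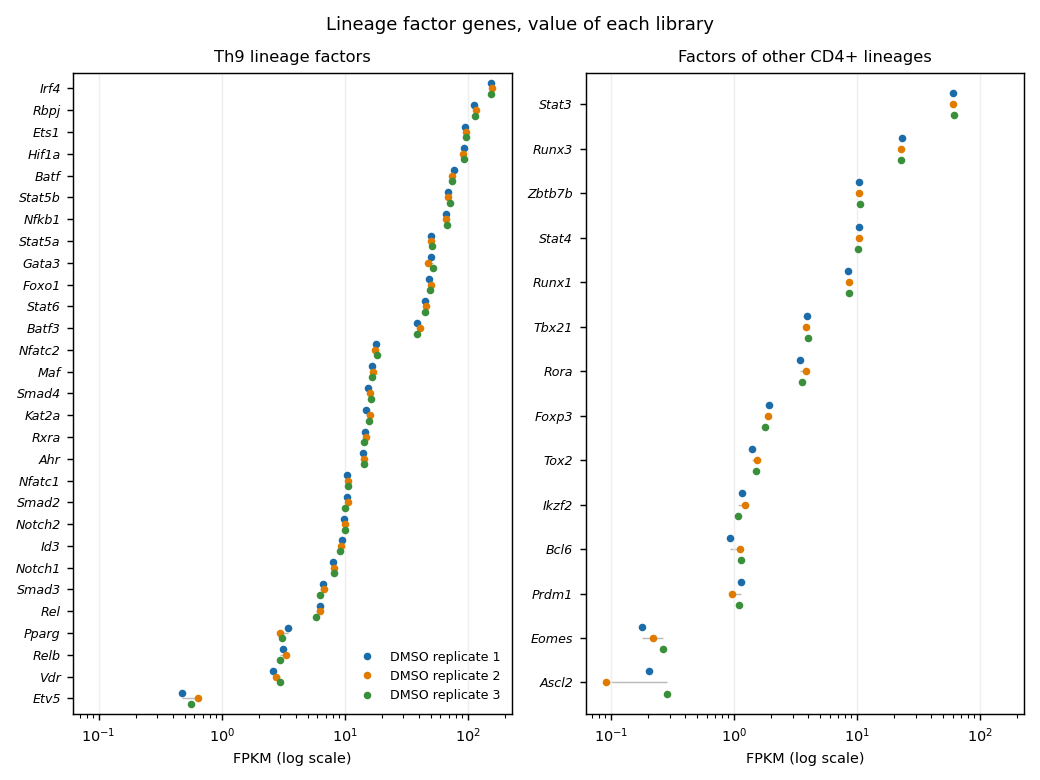
FPKM of each DMSO library (horizontal axes, log scale, 1 point per library) for the Th9 lineage factor genes above 0 in all libraries (left) and for 14 factors of other CD4+ lineages (right). The points of a gene lie close together down to about 1 FPKM, *Irf4* leads the left panel at 155 to 158 FPKM, and *Tbx21*, *Foxp3* and *Bcl6* lie between 0.926 and 3.97 FPKM.

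*Il9* was not the highest cytokine transcript. Of 38 cytokine genes, 18 had at least 1 FPKM, 10 had at least 10 FPKM and 6 were at 0 in every library, and the median was 0.743 FPKM. Above *Il9* stood *Mif*, *Il10* (109, 111 and 110 FPKM, 110 ± 0.875), *Il24* (77.9, 76.2 and 77.4, 77.2 ± 0.829) and *Tgfb1* (60.8 ± 1.25). IL-10 is an anti-inflammatory cytokine that Th2 and Th9 cultures are known to secrete, and IL-24 belongs to the IL-10 family. *Il9* was at 0.496 ± 0.0268 of the level of *Il10*, below it in 3 of 3 libraries. Of the 50-base stretches of *Mif*, 37.8% also occur in other genes.

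The type 2 cytokines were below *Il9*. *Il13* stood at 8.86, 8.67 and 8.93 FPKM (8.82 ± 0.135) and *Il4* at 8.66, 9.12 and 8.34 (8.71 ± 0.389), and their ranges overlapped. *Il9* exceeded *Il13* by 6.19 ± 0.450 times and *Il4* by 6.28 ± 0.361 times, in 3 of 3 libraries. With the length of the longest transcript in place of the exon length, the ratio to *Il4* was 3.09, so the closeness of *Il13* and *Il4* rests on the exon lengths. *Il5*, the eosinophil growth factor that Th2 cells also make, was at 0.631 ± 0.128 FPKM. Cytokines of other lineages were low as well, with *Ifng* at 2.20 ± 0.292 FPKM, *Il21* at 1.27 ± 0.108, *Il17f* at 0.855 ± 0.149 and *Il17a* at 0.251 ± 0.0945. *Il9* exceeded *Ifng* by 25.1 ± 3.43 times. *Il2* had 0.119, 0.0856 and 0 FPKM, at most 5 reads per library.

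Between these groups stood *Lif* (29.4 ± 0.775 FPKM) and *Osm* (10.5 ± 0.232) of the IL-6 family, the lymphotoxins *Ltb* (19.6 ± 0.0563) and *Lta* (16.2 ± 0.563), and *Il16* (12.1 ± 0.167). *Ebi3* (8.27 ± 0.642 FPKM) and *Il12a* (7.33 ± 0.628) encode the chains of IL-35. *Il3*, *Il12b*, *Il27*, *Il31*, *Il33* and *Areg* were at 0 in all libraries, and *Il22* and *Il25* had at most 2 reads.

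TNF family ligands and chemokines were mostly low. Of 14 TNF family ligand genes, 9 had at least 1 FPKM, led by *Tnfsf8* (CD30 ligand, 37.4 ± 1.02 FPKM), *Tnfsf10* (TRAIL, 10.3 ± 0.380), *Tnfsf11* (RANKL, 9.27 ± 0.919) and *Fasl* (8.74 ± 1.12). *Cd40lg*, the helper signal to B cells, was at 3.44 ± 0.692 FPKM. Of 20 chemokine genes, 3 had at least 1 FPKM and none had 10. The highest were *Ccl5* (2.31 ± 0.316 FPKM), *Ccl22* (2.19 ± 0.0990) and *Ccl25* (1.26 ± 0.0806), and *Ccl17* and *Ccl24*, at 0.991 ± 0.113 and 0.457 ± 0.0659 FPKM, followed. *Ccl2*, *Cxcl1*, *Cxcl9* and *Cxcl13* were at 0 in every library.

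The receptor side was dominated by the IL-2 receptor. Of 34 cytokine receptor genes, 24 had at least 1 FPKM and 14 at least 10 FPKM, with a median of 8.78 FPKM. *Il2ra* was followed by its β chain *Il2rb* (251, 253 and 257 FPKM, 253 ± 3.17) and by *Il4ra*, the α chain of the IL-4 receptor (119, 116 and 118, 118 ± 1.42). The common γ chain *Il2rg*, which both receptors need, was lower than its partners in every library, at 50.7, 52.4 and 49.2 FPKM (50.8 ± 1.56), which is 0.0732 ± 0.00140 of *Il2ra* and 0.431 ± 0.0179 of *Il4ra*. Of the stretches of *Il2rg*, 41.8% are shared with a gene that overlaps it at the same locus, and the effect of this on its level was not tested. *Il21r* (51.4 ± 0.685 FPKM) overlapped *Il2rg* in range. *Il9r*, the receptor for IL-9 itself, stood at 1.35, 1.40 and 1.47 FPKM (1.41 ± 0.0638), and *Il4ra* exceeded it by 83.9 ± 3.93 times.

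For TGF-β, the co-receptor *Tgfbr3* (betaglycan) was at 32.8 ± 0.780 FPKM, the type I receptor *Tgfbr1* at 26.7 ± 0.558 and the type II receptor *Tgfbr2* at 7.70 ± 0.355, so the type II to type I ratio was 0.288 ± 0.00912. The IL-12 receptor genes *Il12rb1* (27.4 ± 1.28 FPKM) and *Il12rb2* (13.3 ± 0.312) and the IFN-γ receptor genes *Ifngr1* (27.4 ± 0.999) and *Ifngr2* (14.6 ± 0.149) were all above 10 FPKM in cultures where both ligands were blocked. Receptors for the epithelial alarmins were uneven. *Crlf2*, the TSLP receptor chain, had 9.94 ± 0.241 FPKM and *Il17rb*, the IL-25 receptor chain, 5.04 ± 0.224, while *Il1rl1*, the IL-33 receptor, had 0.714 ± 0.146. *Il23r* and *Il13ra1* had at most 2 reads in every library.

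**Figure D3:**
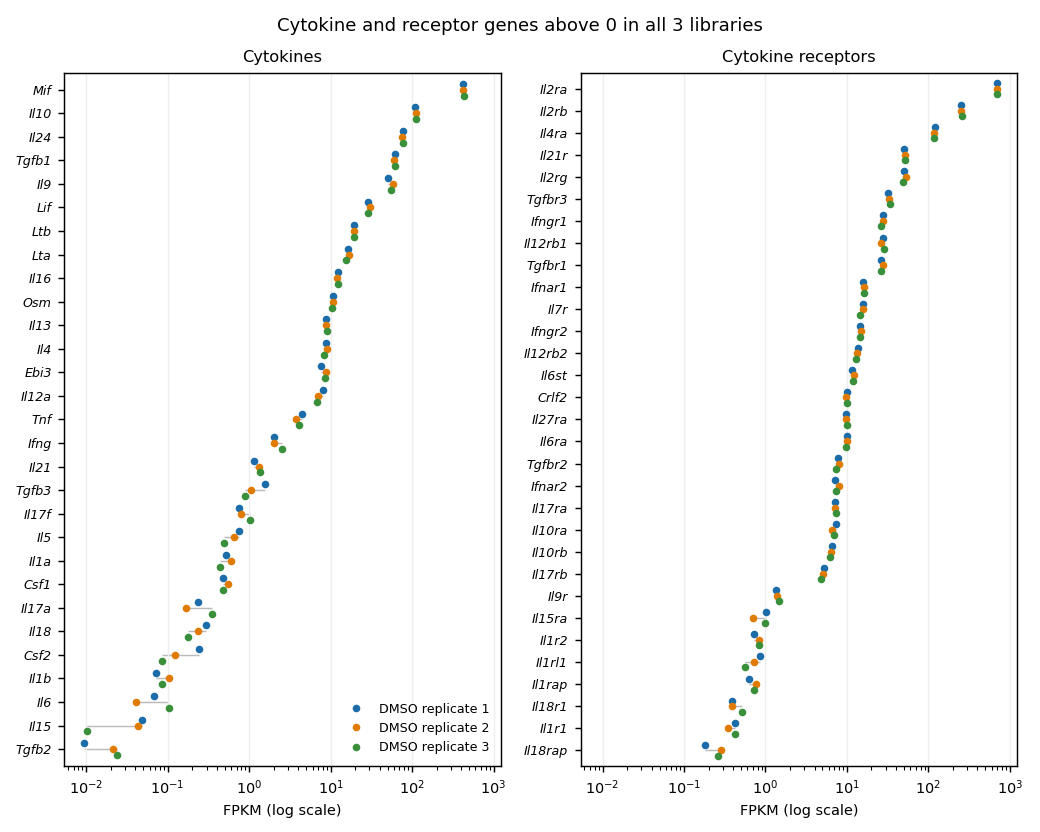
FPKM of each DMSO library (horizontal axes, log scale, 1 point per library) for the cytokine genes (left) and cytokine receptor genes (right) that were above 0 in all libraries. *Il10* and *Il24* lie above *Il9* with no overlap, *Il13* and *Il4* lie together below 10 FPKM, and *Il2ra* at 686 to 702 FPKM leads the receptors.

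Chemokine receptors and related trafficking receptors ranged from 193 FPKM to 0. *Ccr8* (189, 196 and 194 FPKM, 193 ± 3.93), *Ccr4* (188 ± 1.17) and *Ccr7* (184 ± 0.105) were all close to 190 FPKM, and their ranges did not overlap, although that of *Ccr8* and that of *Ccr4* nearly met. CCR8 and CCR4 are found on type 2 and skin-homing T cells, and CCR7 guides cells to lymph nodes. *Cxcr4* was at 36.9 ± 0.976 FPKM and the egress receptor *S1pr1* at 24.3 ± 1.31. *Ptger4*, a receptor for prostaglandin E2, had 9.64 ± 0.410 FPKM. *Cxcr3*, a Th1 receptor, had 7.02 ± 0.525 FPKM, *Gpr15* 6.57 ± 0.446, *Cxcr6* 6.31 ± 0.115 and *Ccr6*, a Th17 receptor, 1.78 ± 0.146. The other 13 of 23 genes were under 1 FPKM, among them *Ccr3* with at most 2 reads and *Ackr3* at 0.

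The antigen receptor and its signaling chain were present throughout. All 18 genes of this list in the table had at least 10 FPKM, with a median of 52.9 FPKM. *Lck*, the kinase that starts the signal, stood at 154 ± 2.82 FPKM, *Cd3d* at 135 ± 2.03, *Cd3g* at 123 ± 2.18, *Lat* at 65.1 ± 1.24, *Cd3e* at 53.3 ± 0.880, *Zap70* at 52.6 ± 1.25 and *Cd247* (CD3ζ) at 27.8 ± 0.322. *Cd28* had 37.3 ± 0.752 FPKM. *Trac* and *Trbc1* were not analysed here.

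Among 18 costimulatory and inhibitory receptors, 16 had at least 1 FPKM and 11 at least 10 FPKM. *Ctla4*, the inhibitory counterpart of CD28, led at 227, 227 and 228 FPKM (227 ± 0.584). TNF receptor family members came next, with *Tnfrsf4* (OX40) at 166 ± 2.35 FPKM, *Tnfrsf8* (CD30) at 94.6 ± 1.61, *Tnfrsf18* (GITR) at 70.5 ± 2.59 and *Tnfrsf9* (4-1BB) at 67.0 ± 0.764, and *Icos* was at 70.3 ± 1.30. Other inhibitory receptors were lower than *Ctla4*, with *Lag3* at 16.3 ± 0.642 FPKM, *Pdcd1* (PD-1) at 11.5 ± 0.0944, *Tigit* at 10.5 ± 0.165 and *Havcr2* (TIM-3) at 0.561 ± 0.142.

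Genes of recent activation and genes of the naive or memory state stood side by side. *Il2ra* and the transferrin receptor *Tfrc* (150 ± 1.65 FPKM) belong to the former, and *Ccr7*, *Tcf7* (TCF-1, 99.6, 95.5 and 98.4 FPKM, 97.8 ± 2.13), *Foxo1* (49.4 ± 0.858), *Lef1* (20.8 ± 0.248) and *Bach2* (17.8 ± 0.160) to the latter. *Klf2*, a factor of quiescent T cells, was at 2.86 ± 0.389 FPKM. *Cd69*, an early activation marker, had 1.01 ± 0.0728 FPKM. The integrin genes *Itgb7* (80.8 ± 1.80 FPKM) and *Itgae* (rank 2647), whose products pair as CD103-β7, were both above 10 FPKM.

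Of 20 cytotoxic effector genes, 6 had at least 10 FPKM and 2 at least 100 FPKM. *Gzmb* had 150, 144 and 149 FPKM (147 ± 3.42, rank 267), close to *Irf4*, and *Srgn*, the proteoglycan that packs granules, had 131 ± 1.86. *Gzma* (35.7 ± 2.31 FPKM) and *Ctsw* (35.2 ± 0.143) followed and overlapped in range. *Prf1*, which encodes the pore-forming perforin, had 0.254, 0.152 and 0.160 FPKM (0.188 ± 0.0567), from 16 to 24 reads per library. *Gzmc* was at 3.30 ± 0.492 FPKM, *Gzmm*, *Gzmf*, *Gzmk*, *Gzmd* and *Gzmg* were under 1 FPKM, and *Gzme* was at 0.

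Glycolytic genes were the highest single transcripts of metabolism. The list summed to 4657 ± 32.6 FPKM, or 1.63% of the total. Of 24 genes, 20 had at least 10 FPKM and 9 at least 100 FPKM, with a median of 39.7 FPKM. *Pgk1*, phosphoglycerate kinase, stood at 970, 980 and 974 FPKM (974 ± 4.96), *Ldha*, lactate dehydrogenase A, at 815, 801 and 823 (813 ± 11.3), and *Pkm*, pyruvate kinase, at 620 ± 1.28. *Eno1* (515 ± 14.5 FPKM), *Tpi1* (453 ± 5.18) and *Aldoa* (420 ± 12.1) were also in the top 100. The steps before them were lower, with the glucose transporter *Slc2a1* at 39.6 ± 1.05 FPKM, *Hk1* at 38.4 ± 0.572 and *Hk2* at 27.5 ± 0.410.

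Paralog choice within the pathway was uneven. *Ldha* exceeded *Ldhb* by 46.3 ± 0.283 times, *Aldoa* exceeded *Aldoc* by 49.3 ± 2.07 times and *Eno1* exceeded *Eno3* by 51.1 ± 1.86 times, while *Slc2a1* exceeded *Slc2a3* by 1.80 ± 0.0510 times and *Hk2* was at 0.716 ± 0.00221 of *Hk1*. With the length of the longest transcript these ratios were 70.2 for *Ldha*, 79.1 for *Aldoa*, 122 for *Eno1* and 0.389 for *Hk2*. *Pfkp* and *Pfkl* were almost level, at a ratio of 1.08 ± 0.00448 that turned to 0.934 with the length of the longest transcript. *Pgk1* and *Eno1* share 67.7% and 72.0% of their stretches with other genes.

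*Gapdh*, often used as a reference gene, was the exception in its list. It had 209, 202 and 136 FPKM (182 ± 40.5), a coefficient of variation (CV, SD over mean) of 22.2% against a median of 2.34% for the list, and library 3 was the low one. Its reads were 31676, 34118 and 24418, in libraries of 36607305, 40860249 and 43481066 reads on genes. Whether depth bears on its level was not tested. Of its 50-base stretches, 27.2% occur in 203 other genes, and whether these bear on its spread was not tested. The pseudogene *Gm7336*, which also shares stretches with 203 other genes, stood at 12.7, 38.1 and 29.9 FPKM.

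The pentose phosphate and mitochondrial lists had few low members. All 7 pentose phosphate genes had at least 10 FPKM, led by *Tkt* (transketolase, 73.0 ± 1.11 FPKM) and *Taldo1* (71.9 ± 1.71). Of 24 tricarboxylic acid cycle genes, 23 had at least 10 FPKM, with a median of 35.3 FPKM, led by *Sdhd* (119 ± 3.38), *Mdh2* (99.8 ± 1.08) and *Mdh1* (95.8 ± 1.18), and *Idh1*, the cytosolic isocitrate dehydrogenase, was the lowest at 6.02 ± 0.758. Of 88 nuclear respiratory chain genes, 77 had at least 10 FPKM, with a median of 52.4 FPKM and a sum of 6156 ± 89.1 FPKM, or 2.16% of the total. By complex, the medians were 41.2 FPKM over 39 genes of complex I, 78.6 over 4 of complex II, 78.1 over 9 of complex III, 59.4 over 18 of complex IV and 62.8 over 18 of ATP synthase. *Atp5f1b* (450 ± 6.31 FPKM) and *Atp5f1a* (407 ± 1.07), subunits of the catalytic head of ATP synthase, led. The members at 0 were *Ndufb11b*, *Cox7b2*, *Cox8b* and *Cox8c*.

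The desaturase genes *Scd2* and *Scd1* were the highest of the fatty acid synthesis list. *Scd2* stood at 525, 539 and 539 FPKM and *Scd1* at 243, 246 and 241 (243 ± 2.43), a ratio of 2.20 ± 0.0408. The genes that build the chain were lower, with *Acly* (ATP citrate lyase) at 70.5 ± 0.986 FPKM, *Fasn* (fatty acid synthase) at 35.3 ± 0.0801 and *Acaca* (acetyl-CoA carboxylase) at 7.64 ± 0.183. The sterol regulatory genes *Srebf2* (39.2, 39.0 and 40.2 FPKM, 39.5 ± 0.644) and *Srebf1* (37.7, 36.4 and 38.0, 37.3 ± 0.835) were nearly equal, at a ratio of 1.06 ± 0.0154 in favor of *Srebf2* in 3 of 3 libraries. *Insig1*, which holds SREBP in the endoplasmic reticulum, was at 39.1 ± 0.929 FPKM. *Mlxipl*, which encodes the glucose-sensing factor ChREBP, had 0.0192 ± 0.0101 FPKM. *Nr1h2* (LXRβ, 14.0 ± 0.388 FPKM) exceeded *Nr1h3* (LXRα) by 80.6 ± 9.96 times.

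Of 21 cholesterol synthesis genes, 16 had at least 10 FPKM, with a median of 18.3 FPKM. *Cyp51* (48.9 ± 0.573 FPKM), which removes a methyl group from lanosterol, *Acat2* (38.3 ± 0.572) and *Ebp* (30.2 ± 0.896) were among the highest. *Fdps*, farnesyl diphosphate synthase, stood at 0.980, 1.07 and 0.973 FPKM (1.01 ± 0.0542), against 6.05 ± 0.159 for *Hsd17b7*, the next lowest enzyme of the pathway on the list, and 11.9% of its stretches are shared with a gene that overlaps it. Of 17 fatty acid oxidation genes, 11 had at least 10 FPKM, with a median of 15.1 FPKM, and *Acaa2* (48.4 ± 0.775) and *Acadl* (43.4 ± 1.73) led. *Cpt1a*, the entry step to mitochondria, had 15.1 ± 0.447 FPKM, and *Ppargc1a*, a coactivator of mitochondrial biogenesis, was at 0.

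Serine and one-carbon genes were high among the amino acid genes. *Phgdh*, which starts serine synthesis, had 168, 163 and 167 FPKM (166 ± 2.88), the mitochondrial *Shmt2* 113 ± 2.35, *Psat1* 84.6 ± 1.10 and their regulator *Atf4* 97.3 ± 1.71. *Shmt2* exceeded the cytosolic *Shmt1* by 5.91 ± 0.229 times. *Odc1*, the first enzyme of polyamine synthesis, was at 142 ± 1.00 FPKM and the leucine transporter *Slc7a5* at 68.7 ± 0.562, whereas the cystine transporter *Slc7a11* was at 0.0511 ± 0.0248. Of this list, 21 of 24 genes had at least 10 FPKM, and 63.7% of the stretches of *Phgdh* occur in other genes.

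**Figure D4:**
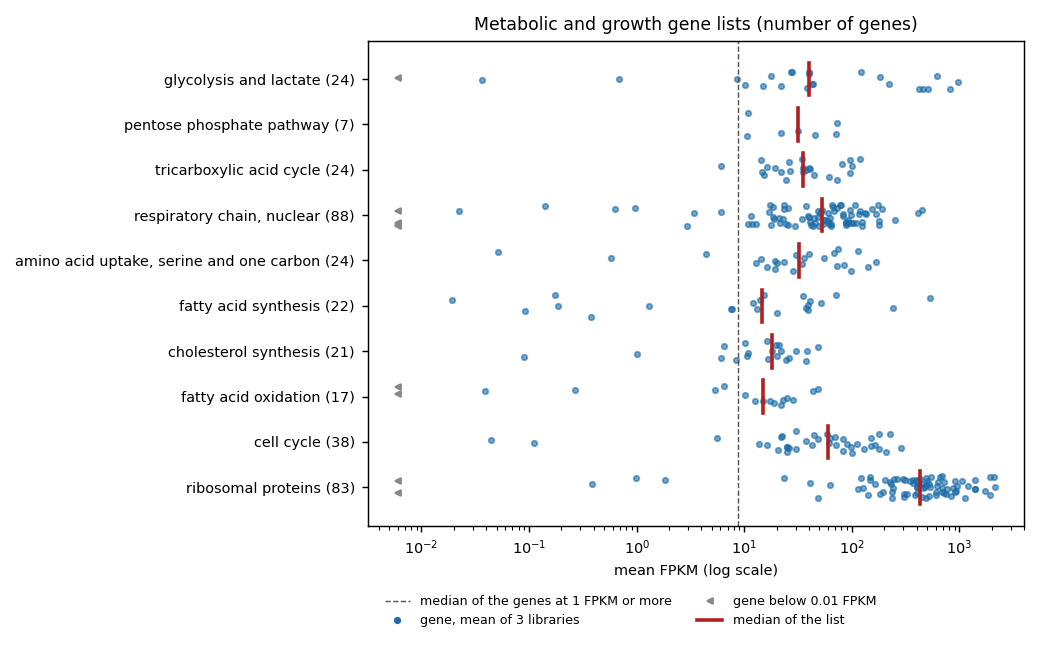
Mean FPKM of each gene (horizontal axis, log scale, 1 point per gene) in 10 metabolic and growth lists, with the number of genes in brackets, red bars at the list medians, gray triangles for genes below 0.01 FPKM and a dashed line at 8.73 FPKM, the median of all genes at 1 FPKM or more. All 10 medians lie to the right of the line, from 14.6 FPKM for fatty acid synthesis to 426 FPKM for ribosomal proteins.

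The cells carried the transcripts of active division. Of 38 cell cycle genes, 35 had at least 10 FPKM and 11 at least 100 FPKM, with a median of 59.8 FPKM. *Pcna*, the replication clamp, stood at 289 ± 2.29 FPKM, *Rrm2* at 209 ± 5.62, *Top2a* at 178 ± 5.50, *Mcm6* of the replicative helicase at 178 ± 0.769 and *Mki67* (Ki-67) at 148, 155 and 149 (151 ± 3.89). Among D cyclins, *Ccnd2* (48.6 ± 0.587 FPKM) exceeded *Ccnd3* by 2.35 ± 0.0795 times (1.54 with the length of the longest transcript), and *Ccnd1* was at 0.110 ± 0.0167 FPKM. *Cdk4* exceeded *Cdk6* by 3.89 ± 0.0556 times, and *Myc* was at 44.8 ± 0.532 FPKM. Of the survival genes, *Mcl1* (94.5 ± 0.444 FPKM) exceeded *Bcl2* (22.3 ± 0.308) by 4.23 ± 0.0552 times, and the proapoptotic *Bcl2l11* (BIM) was at 1.20 ± 0.0515.

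Ribosomal protein genes had a median of 426 FPKM over 83 genes and held 16.1% of the summed FPKM. Of these genes, 74 had 100 FPKM or more. *Rps10* (1.80, 1.84 and 1.87 FPKM) and *Rpl24* (1.25, 0.879 and 0.848) fell far below. Of their stretches, 50.6% and 69.0% are shared with a gene that overlaps them at the same locus, and 44.6% and 67.5% with genes elsewhere, and the processed pseudogene *Rps10-ps2* was at 525 ± 7.05 FPKM. Whether reads of *Rps10* and *Rpl24* were set aside or given to other genes was not tested, and their levels are uncertain. *Ndufb2* of respiratory complex I was likewise at 0.624 ± 0.0516 FPKM, with 2.20% of stretches shared with an overlapping gene and 0% elsewhere.

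Markers of other cell types were low with few exceptions. *Cd4* stood at 78.1, 78.4 and 78.2 FPKM (78.2 ± 0.147), against 7.60 ± 0.426 for *Cd8b1* and 1.81 ± 0.182 for *Cd8a*. Of 7 B cell markers, *Ighm* had 46.6, 45.4 and 46.1 FPKM (46.0 ± 0.584) and *Cd79b* 6.18 ± 0.969, while *Cd79a*, *Ighd*, *Ms4a1* and *Pax5* were under 1 FPKM, with *Ms4a1* (CD20) at 0.0387 ± 0.0254. The summed level of that list ran from 53.2 to 54.1 FPKM, and its part in the profile was not tested. Summed levels ran from 2.93 to 3.03 FPKM for 5 NK cell markers, from 1.33 to 1.44 for 7 of monocytes and macrophages, from 0.639 to 0.694 for 7 of dendritic cells, from 0.592 to 0.731 for 5 of neutrophils, from 1.03 to 1.27 for 5 of mast cells and basophils and from 0 to 0.196 for 4 of eosinophils. They ran from 1.29 to 1.47 FPKM for 6 erythroid markers, from 1.49 to 2.20 for 4 of platelets and from 2.73 to 3.12 for 5 of stroma and endothelium. *Siglech*, *Clec9a*, *Cd209a*, *Mpo*, *Elane*, *Siglecf*, *Col3a1*, *Cdh5*, *Hbb-b1* and *Hba-a2* were at 0, and the γδ marker *Sox13* was at 0.273 ± 0.0496 FPKM. In all 3 libraries the Y-linked *Eif2s3y* (22.8 ± 0.731 FPKM) and *Ddx3y* (18.8 ± 0.337) were expressed, and *Xist* had 2 to 5 reads.

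The replicates were close. Over the 10271 genes at 1 FPKM or more, Pearson's r of log2(FPKM + 0.1) between pairs of libraries ran from 0.993 to 0.994 (a correlation over genes, not over replicates), and the median CV was 3.51%. Of the 4703 genes at 10 FPKM or more, 88.7% had a CV under 5% and 74 had a CV above 10%. Each library departed by over 10% from the mean of the other two in 155, 154 and 136 of these genes, so none stood apart. Reads varied 2.81 to 3.28 times more than single-read counting gives between pairs of DMSO libraries. In the 9 other replicate pairs of the series they varied 2.73 to 4.33 times more. Of the 10271 genes, 0 had identical values within a pair of DMSO libraries and 0 to 4 within the other pairs. Thus no pair held the same values deposited again. Both mates of a fragment seem to have been counted, since 1040 to 1086 genes had 2 reads and 520 to 539 had 1, and counting error then scales with pairs. The median CV was 19.2% at 20 to 100 reads against 17.7% from counting pairs, and 1.57% at 10000 reads or more against 0.923%.

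The highest CV at 10 FPKM or more belonged to the T cell receptor segment *Trav14n-1*, with 82.0, 802 and 69.2 FPKM (CV 132%). *Trav14d-1* was at 534, 261 and 343 FPKM (CV 36.9%), with replicate 2 the lowest, and all stretches of both segments occur in other genes. The 8 *Trav14* segments summed to 626, 1076 and 424 FPKM, so the total of the family varied too. Next were the processed pseudogenes *Gm10288* (CV 56.0%), *Rps27a-ps3* (52.2%), *Gm7536* (50.1%), *Gm7336* (48.1%), *Gm5424* (27.8%) and *Gm10036* (25.3%), and the small nucleolar RNA genes *Snord73b* (27.2%) and *Snord32a* (25.2%), this last pair with at most 50 reads per library. Stretches shared with an overlapping gene were left out of the next counts. A CV above 10% was seen in 31 of 174 genes (17.8%) that share 50% or more of their stretches with genes elsewhere. It was seen in 28 of 3040 (0.921%) that share none with genes elsewhere, and 12 of those 28 were protein-coding. The lowest CVs were those of *Hnrnph1* (120 FPKM, CV 0.0355%), *Ccr7* (184 FPKM, 0.0570%), *Csnk1g2* (19.6 FPKM, 0.0715%), *Plec* (11.7 FPKM, 0.0799%) and *Jpt1* (125 FPKM, 0.0858%). These values are below the counting error of read pairs, and 3 libraries are too few to call a gene stable from its CV.

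**Figure D5:**
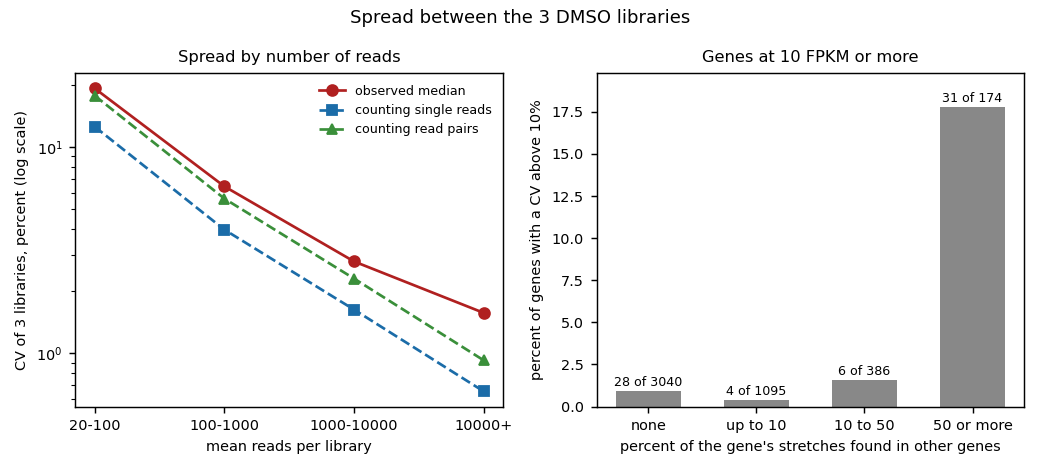
Left, median CV of the 3 libraries (percent, log scale) by mean reads per library, with the median that counting single reads or read pairs alone would give. Right, percent of genes at 10 FPKM or more with a CV above 10%, by the percent of their 50-base stretches found in other genes that do not overlap them, with counts over the bars. The observed line runs just above that of read pairs up to 10000 reads, and the bar for genes with 50% or more shared stretches stands at 17.8%.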

How the data were processed

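Per the paper's methods, the authors used Trim Galore on the paired reads, HISAT2 for alignment to GRCm38 and featureCounts for the genes, and deposited FPKM values. The annotation release and the strand setting are not given in the sources used here, so genes that overlap are uncertain. RNA input was 500 ng per library. The table has 32352 lines for 32051 genes, and 301 repeats with identical values were dropped. Of its columns, 3 belong to DMSO libraries and 0 to no sample. Exon lengths from GENCODE (GRCm38), found for 99.9% of genes, turned 98.3% to 98.4% of the values of a library into whole reads (tolerance 0.02 reads). A gene with at most 3 reads in every library was taken as at the floor, which covers counting error only, whereas the SD covers all differences between the libraries. No test was made, since no groups were compared, and means, SD, CV, ranks, ratios and list medians were computed with Python 3.11.15, pandas 2.3.3 and numpy 2.4.6. The spread measure was tested on simulated data. Of each gene, stretches of 50 bases, taken every 5 bases, were searched in all other genes. The genes, 24 lists and 15 marker lists were chosen with earlier results of these data known, and the shared-stretch measure and the shares of receptor segments were chosen after seeing the data. Named were the top 20 genes, the highest and the defining members of each list and those at 0, the 10 highest and 5 lowest CVs at 10 FPKM or more, and the gene pairs. Lists of ribosomal, respiratory and translation genes followed symbols, without pseudogenes. *Trac*, *Trbc1*, *Cxcl11*, *Trdc*, *Tcrg-C1*, *Tcrg-C2* and *Hbb-bs* were not analysed here, and some members of the lists are not reported here. Alternatives changed the scaling, gene length, filters, pseudocount and libraries.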

Additional observations from a re-analysis of the deposited data

How the results depend on the processing

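The 10271 genes at a mean of 1 FPKM or more became 12024 at 1 TPM, 10033 at 1 FPKM in every library and 13799 with more than 3 reads in every library. The 100 highest genes by reads, not FPKM, held 19.3% of the reads, and without ribosomal protein genes and *Eef1a1* the top 100 of the remaining genes held 21.9% of their FPKM, against 29.0%. The median CV, 3.51%, was 2.38% for genes at 10 FPKM or more, 8.34% with no filter, and 2.69% to 2.98% with a library left out, which leaves 2 values per gene. With the length of the longest transcript in place of the exon length, the rank of *Il9* went from 907 to 1275, *Irf4* from 244 to 334, *Batf* from 619 to 570 and *Gata3* from 986 to 1107. Among protein-coding genes alone *Irf4* was at rank 230 and *Batf* at 584. By the median of the libraries *Irf4* was at 247, and with a library left out at 244 to 248. Of 24 lists, 17 had a median above that of all genes at 1 FPKM or more, and 16 to 21 did under the alternatives. In each of the 37 pairs the same gene was higher in every library, the first as the pair was written in 31 and the second in 6. With the longest transcript the first was higher in 28. There *Pfkp* to *Pfkl* was reversed to 0.934 and *Stat5b* to *Stat5a*, 1.39 with exon lengths, to 0.820, and *Fads2* to *Fads1* went from 1.33 to 1.00. Of the medians, those of ribosomal proteins (718), glycolysis (60.0), fatty acid oxidation (24.6), activation markers (31.2) and sex-linked transcripts (4.86 FPKM) were over 1.5 times higher with the longest transcript. With members under 1 FPKM left out, 20 of the 24 medians moved, those of cytokines from 0.743 to 11.3, chemokines from 0.127 to 2.19, chemokine receptors from 0.403 to 17.0, cytokine receptors from 8.78 to 14.0, TNF family ligands from 4.26 to 7.07, costimulatory and inhibitory receptors from 13.9 to 20.9, cytotoxic effectors from 3.34 to 8.74, fatty acid synthesis from 14.6 to 35.3, sex-linked transcripts from 2.58 to 10.7 and translation factors from 42.4 to 66.2 FPKM. Median-ratio scaling factors of the 3 libraries were all 1.00. Of the 24 list medians and 37 ratios, 59 to 61 moved by less than the spread of the libraries when 1 was left out. A mean of 3 values always moves by less than their SD when 1 is dropped. For the ratios this outcome was thus fixed in advance. Of the medians and ratios, 43 moved with the longest transcript, and the 24 medians moved with TPM, which rescales all values. No paired analysis was possible because no result comes from a test and no groups were compared. Depth limits the genes with few reads: at 20 to 100 reads the median CV was 19.2%.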
